A study of Mus musculus with 2 samples.

Results

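Expression of 10 genes associated with mature granule neurons, Calb1, C1ql2, C1ql3, Ppp3ca, Camk2a, Camk2b, Nrgn, Icam5, Dsp and Tdo2, was followed in RNA from EdU-labelled nuclei of the mouse dentate gyrus. The genes were chosen by name, and all 10 were found among the 24319 named genes that the deposited table lists for the pair of libraries. The series holds 1 library for wild-type animals and 1 for Kmt2d +/mut animals, which carry the Kmt2d+/Bgeo allele and so lack 1 intact copy of the histone H3 lysine 4 methyltransferase gene Kmt2d. Mice were 8 weeks old, all had received EdU at 150 mg/kg 16 h before dissection, and each library was made from 500 sorted nuclei pooled from 3 animals of its genotype. EdU is built into DNA during S phase, so the sort was for nuclei that had recently copied their DNA. No library was replicated, so every difference below compares 2 libraries, and none has a spread between replicates or a test between genotypes. The Kmt2d +/mut library is called mutant below.

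Granule neurons are the principal excitatory cells of the dentate gyrus and are still made from dividing stem cells in the adult hippocampus. As a new granule neuron matures it moves from doublecortin and calretinin to the calcium buffer calbindin, and it builds up the calcium-calmodulin signalling of the postsynapse. In that signalling calcium-loaded calmodulin switches on CaM kinase II and the phosphatase calcineurin, while neurogranin holds calmodulin when calcium is low. Of the members, Calb1, C1ql2, Dsp and Tdo2 are known as markers of granule neurons, which does not mean that they are confined to them. Camk2a, Camk2b, Ppp3ca, Nrgn and Icam5 are shared by other excitatory forebrain neurons.

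The members did not behave alike. Camk2a and Camk2b stood 3.48-fold and 3.57-fold higher in the mutant, Icam5, Ppp3ca, C1ql3 and C1ql2 stood 2.03-fold to 1.20-fold higher, Calb1 and Nrgn were listed at 0 in the mutant, and Dsp and Tdo2 were listed at 0 in both libraries. Values are FPKM, which scale fragments to transcript length and library size, and which allow levels to be compared between genes. The measure of difference was log2((mutant FPKM + 1)/(wild-type FPKM + 1)), which understates the difference of low genes. Of the 8 members that reached 1 FPKM in either library, 2 stood above wild-type by 2-fold or more on that scale, another 2 stood below it by 2-fold or more, and 4 were within 2-fold. Over all 7903 genes at this minimum, 40.5% were 2-fold or more above wild-type and 44.3% were below it by as much, so the members' share, 2 of 8 in each direction, lay below that background. In nuclei pooled from a tissue, fewer cells of a type and less RNA per cell cannot be told apart.

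**Figure D1:**
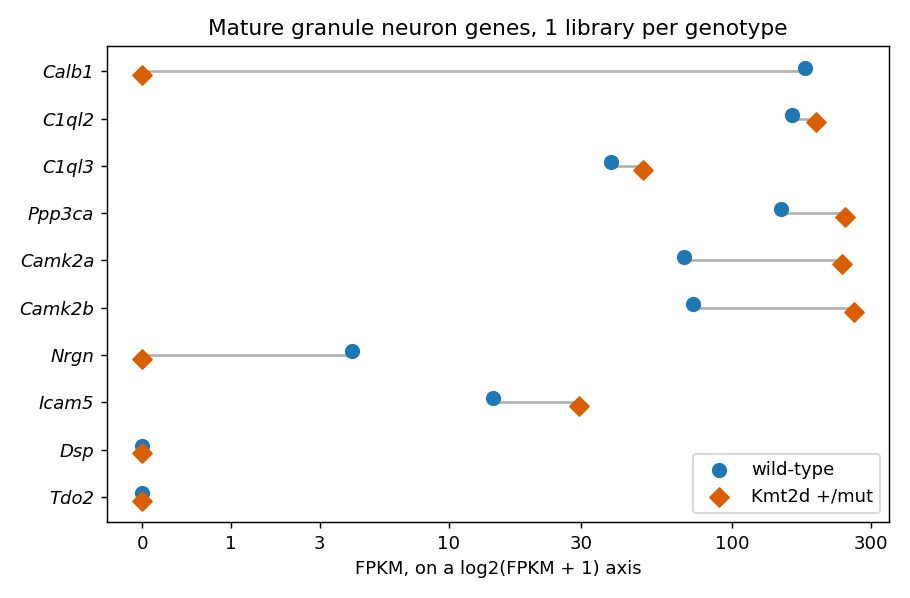
FPKM of the 10 members on a log2(FPKM + 1) axis, with a circle for the wild-type and a diamond for the mutant (Kmt2d +/mut) library (1 library each, so no error bars). Calb1 runs from 178 FPKM to a listed 0, Camk2a and Camk2b have the widest gaps among the members read in both libraries, and Dsp and Tdo2 lie at 0 in both.

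Calb1 encodes calbindin, the cytosolic calcium buffer that mature granule neurons carry in quantity (mm10, chr4:15881264-15906709, plus strand). It was read at 178 FPKM in the wild-type library, where 89.7% of the genes above 0 stood lower, and it was listed at 0 in the mutant library. It was the highest member in wild-type. On its longest annotated transcript of 4222 bases, 178 FPKM amounts to about 159 fragments at the estimated depth. In the authors' deposited table Calb1 is called lower in the mutant, with a p-value of 0.00405 and a q-value of 0.029, and it is the only member with a call. The authors' deposited table calls 14.3% of the 3249 genes tested there lower and 12.8% higher, and every gene it calls was listed at 0 in 1 of the libraries.

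A listed 0 was frequent at this level. Of 1060 genes with a wild-type FPKM within 2-fold of that of Calb1, 37.9% were listed at 0 in the mutant. Over all genes at the minimum, 31.9% were listed at 0 in the mutant and 27.8% in wild-type. A value of exactly 0 may reflect an estimate that failed rather than an absence of reads, so no fold is given for Calb1. Its status in the authors' deposited table is OK, and why it was listed at 0 was not tested.

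**Figure D2:**
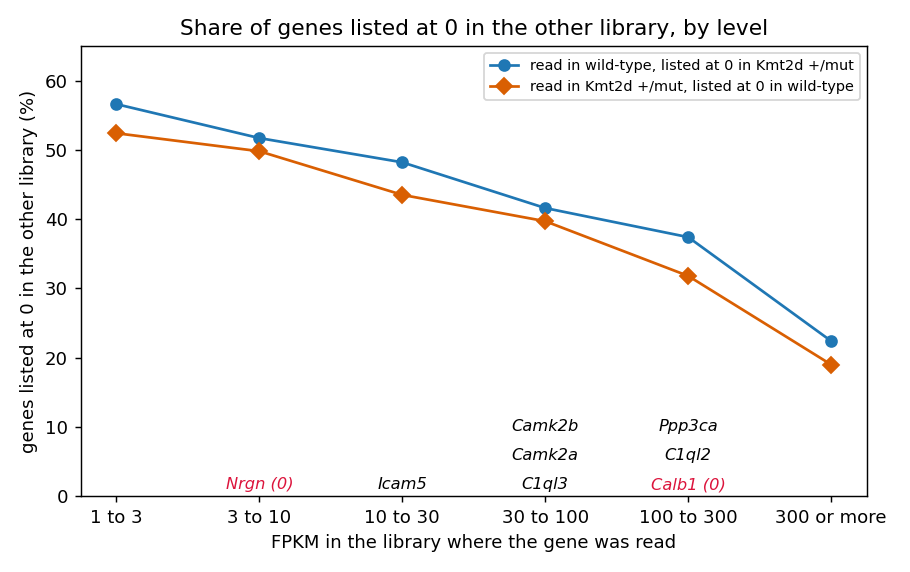
Percent of genes listed at 0 in the other library, against the FPKM class in the library where they were read; circles follow genes read in wild-type and diamonds genes read in the mutant, and member names stand at their wild-type class, in red with (0) where the mutant is listed at 0. The share falls from 56.6% at 1 to 3 FPKM to 22.4% at 300 FPKM or more for genes read in wild-type, and it is 37.4% in the class of Calb1, C1ql2 and Ppp3ca.

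C1ql2 and C1ql3 encode secreted C1q-like proteins that granule neurons release from mossy fibre terminals and that help to place kainate receptors at the synapses onto CA3 neurons. C1ql2 (chr1:120340582-120343174, plus strand) was read at 161 FPKM in the wild-type library and 193 FPKM in the mutant, a ratio of 1.20. C1ql3 (chr2:12924041-13010864, minus strand) was read at 38.1 FPKM in the wild-type library and 49.4 FPKM in the mutant, a ratio of 1.30. Both values were higher in the mutant by less than counting error, and C1ql2 stood above C1ql3 by 4.22-fold in wild-type and by 3.91-fold in the mutant. The estimated fragments were 63.9 and 75.8 for C1ql2, giving an exact binomial 95% interval of the ratio from 0.863 to 1.73, and 19.7 and 25.1 for C1ql3, with an interval from 0.684 to 2.44. These intervals cover counting error only, since the labels describe no molecular identifiers and PCR copies were not told from separate molecules. C1ql2 has a q-value of 0.925 in the authors' deposited table, and C1ql3 was not tested there.

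C1ql2 and C1ql3 are paralogs, and no source used here says how reads that fit both were placed. The longest run of identical bases between their annotated transcripts is 38 bases long and lies in the coding part of exon 1 of each gene, at chr1:120341622-120341659 on the plus strand and chr2:13010402-13010439 on the minus strand. It is shown because a read no longer than this run could fit either gene.
C1ql2 and C1ql3 shared run: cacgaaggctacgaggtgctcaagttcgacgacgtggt
Read length is not given in the sources used here. For Camk2a and Camk2b the longest identical run was 32 bases.

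Ppp3ca encodes the main catalytic subunit of calcineurin in brain (chr3:136670066-136937727, plus strand). It was read at 148 FPKM in the wild-type library and 243 FPKM in the mutant, a ratio of 1.65. That was higher in the mutant but within 2-fold, as for the C1q-like genes. The estimated fragments were 149 and 240.4 on the longest transcript, with an exact binomial 95% interval of the ratio from 1.34 to 2.04 for counting error only. In the authors' deposited table its q-value is 0.718, and 36.5% of all genes read in both libraries had a ratio at least as high.

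Camk2a and Camk2b encode the alpha and beta subunits of CaM kinase II, the kinase that drives synaptic strengthening and forms mixed holoenzymes of both. Camk2a (chr18:60925632-60988152, plus strand) was read at 68.3 FPKM in the wild-type library and 238 FPKM in the mutant. Camk2b (chr11:5969666-6065748, minus strand) was read at 73.2 FPKM in the wild-type library and 261 FPKM in the mutant. Both subunits stood well above their wild-type level in the mutant, and within each library they were nearly equal, with Camk2a at 0.933 of Camk2b in wild-type and at 0.910 in the mutant. They went from a place above 72.4% and 73.8% of the read genes in wild-type to above 94.4% and 95.4% in the mutant, and Camk2b was the highest member there.

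For Camk2a the ratio of 3.48 rested on an estimated 72.2 and 246 fragments, with an exact binomial 95% interval from 2.69 to 4.63, and for Camk2b the ratio of 3.57 rested on 63.7 and 223 fragments, with an interval from 2.70 to 4.80. On the longest transcripts both intervals lie above 2-fold, if each fragment is taken as a separate molecule. PCR copies were not told apart, so the intervals may be too narrow. With the shortest annotated coding transcript of 499 bases, the Camk2a counts would be 4.39 and 15.9 fragments and the interval 1.32 to 16.9. Among the 3182 genes at the minimum that were read in both libraries, 31.5% were 2-fold or more above wild-type and 30.6% were below it by as much, and 22.9% and 22.5% had a ratio at least as high as those of Camk2a and Camk2b. The q-values in the authors' deposited table are 0.600 and 0.593, and of the 1826 genes read in both libraries that were tested there it calls 0%. There 4 of the 6 members read in both libraries were tested.

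Nrgn encodes neurogranin, the small postsynaptic protein that binds calcium-free calmodulin (chr9:37544493-37552745, minus strand). It was read at 4.14 FPKM in the wild-type library and was listed at 0 in the mutant. That wild-type value amounts to about 1.14 fragments on the transcript of 1453 bases, close to the least that could be read. A difference of this gene was not detectable at this depth, and 52.7% of the 981 genes at a like wild-type level were listed at 0 in the mutant.

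**Figure D3:**
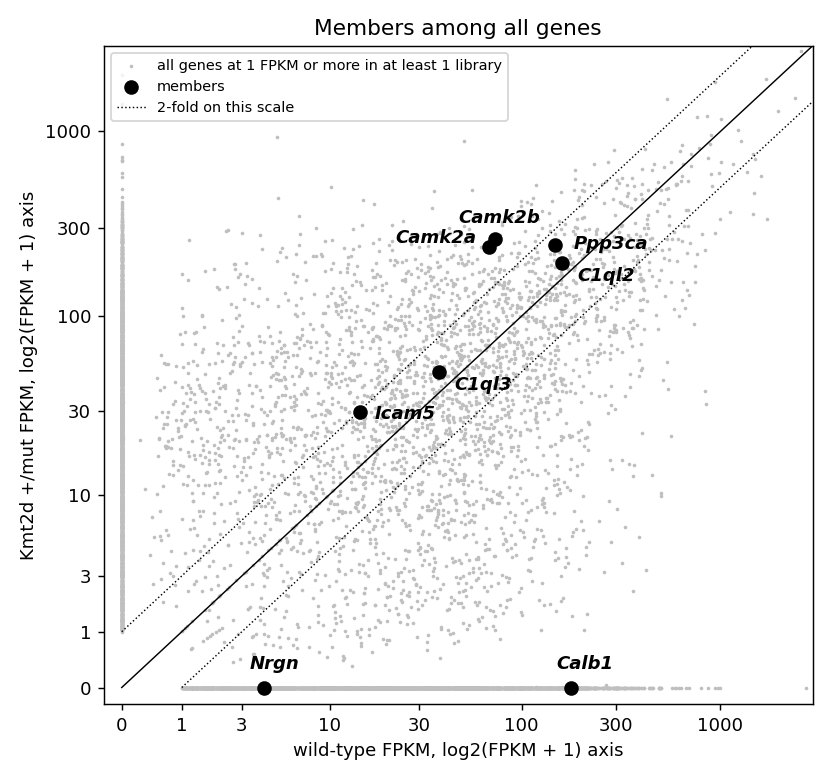
Mutant FPKM against wild-type FPKM, both on log2(FPKM + 1) axes, for all 7903 genes at 1 FPKM or more in at least 1 library (grey) and the 8 members among them (black, named); the full line marks equal values and the dotted lines a 2-fold difference on this scale. Camk2a and Camk2b lie above the upper dotted line inside a broad cloud, and Calb1 and Nrgn lie on the row of genes listed at 0 in the mutant.

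Icam5, or telencephalin, is a dendritic adhesion molecule of forebrain neurons (chr9:21032038-21039036, plus strand). It was read at 14.6 FPKM in the wild-type library and 29.6 FPKM in the mutant, a ratio of 2.03 and a log2 difference of 0.97 with the pseudocount of 1, just inside 2-fold. About 8.88 and 17.7 fragments stood behind these values, and the exact binomial 95% interval of the ratio ran from 0.876 to 5.19, so a difference was not detectable at this depth. The authors' deposited table did not test it.

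Dsp encodes desmoplakin, a plaque protein of desmosomes that is used as a marker of dentate granule neurons (chr13:38151294-38198577, plus strand). Tdo2 encodes tryptophan 2,3-dioxygenase, the first enzyme of the kynurenine route and another marker of these neurons in the mouse (chr3:81958414-81975728, minus strand). Both were listed at 0 in the wild-type and in the mutant library. At the estimated depth, 1 fragment on the Dsp transcript of 9592 bases is worth 0.480 FPKM in the wild-type library and 0.491 FPKM in the mutant. For Tdo2 1 fragment is worth 1.40 and 1.43 FPKM on its longest transcript of 3431 bases. These worths do not bound the level of a gene listed at 0. Of genes at 300 FPKM or more in wild-type, 22.4% were listed at 0 in the mutant. As for Calb1, a listed 0 may reflect an estimate that failed.

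Over the 8 members at the minimum the median log2 difference was 0.54, and over the 6 read in both libraries it was 0.84, where all 6 values were higher in the mutant, as were 51.1% of all genes read in both. The same medians over all genes were -0.23 for the 7903 at the minimum and 0.02 for the 3182 read in both. The 10 members together summed to 684 FPKM in the wild-type library and 1015 FPKM in the mutant, or 0.155% and 0.260% of all FPKM. The order of levels also differed: Calb1, C1ql2 and Ppp3ca led in wild-type, and Camk2b, Ppp3ca and Camk2a led in the mutant. With 1 library per genotype there is no spread to set these orders against.

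Promoter sequence was compared because KMT2D writes a mark that is found at promoters and enhancers, and because CpG-rich promoters are widely marked by H3K4 methylation. RefSeq promoters of the build GRCm38.p6, which is mm10, were matched for 7 members, from 250 bases before to 50 after the start of the gene. Calb1 and Ppp3ca were not matched, and that of Camk2a was not used. The promoters of Camk2b, C1ql2 and Tdo2 are shown as the member with the most CpG, a member with an intermediate number and the member with the fewest, 5′ to 3′ on the gene's strand with each CG in capitals.
Camk2b, chr11:6065699-6065998, minus strand: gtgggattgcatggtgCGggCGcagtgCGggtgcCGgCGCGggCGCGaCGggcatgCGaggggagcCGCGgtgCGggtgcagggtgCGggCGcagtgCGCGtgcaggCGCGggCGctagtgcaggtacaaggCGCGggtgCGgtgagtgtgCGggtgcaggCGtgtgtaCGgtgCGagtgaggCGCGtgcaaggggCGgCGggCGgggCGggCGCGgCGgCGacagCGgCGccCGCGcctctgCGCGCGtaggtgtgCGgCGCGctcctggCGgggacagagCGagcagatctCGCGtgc
C1ql2, chr1:120340332-120340631, plus strand: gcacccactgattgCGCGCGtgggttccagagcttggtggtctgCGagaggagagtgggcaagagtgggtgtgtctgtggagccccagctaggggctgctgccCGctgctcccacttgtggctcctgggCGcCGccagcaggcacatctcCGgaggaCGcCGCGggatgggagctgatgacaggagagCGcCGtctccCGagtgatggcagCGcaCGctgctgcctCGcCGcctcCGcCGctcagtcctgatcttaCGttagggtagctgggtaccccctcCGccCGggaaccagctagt
Tdo2, chr3:81975679-81975978, minus strand: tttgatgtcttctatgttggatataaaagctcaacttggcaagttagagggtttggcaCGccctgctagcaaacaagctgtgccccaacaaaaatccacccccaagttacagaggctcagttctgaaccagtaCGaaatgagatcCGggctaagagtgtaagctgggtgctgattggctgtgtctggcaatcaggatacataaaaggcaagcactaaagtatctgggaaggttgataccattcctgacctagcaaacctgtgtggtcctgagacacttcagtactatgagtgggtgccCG
The Camk2b promoter holds 51 CpG, more than 99.3% of the 32851 promoters in the table, whose median is 7. C1ql2 and Icam5 hold 23 each, C1ql3 25, Dsp 27 and Nrgn 17. Tdo2 holds 4, more than 31.4% of promoters, and is the only matched member with the letters TATAAA on either strand, which 13.6% of all promoters hold. In Tdo2 these letters begin at -229 from the start of the gene. CpG number did not separate the members read from those listed at 0, since Dsp holds more CpG than C1ql2, C1ql3, Icam5 and Nrgn.

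The lists of partners in calcium signalling differed from each other in direction. For calcineurin, the second catalytic gene Ppp3cb stood at 55.2 FPKM in the wild-type library and 2.48 FPKM in the mutant, and the regulatory subunit Ppp3r1 at 8.59 and 1.74. Ppp3ca was thus 2.68 times the level of Ppp3cb in wild-type and 97.8 times in the mutant. The mutant figure rests on the low Ppp3cb value of 2.48 FPKM, whose fragments were not estimated. Ppp3cb has a q-value of 0.600 in the authors' deposited table and is not called there. The calcineurin regulator Rcan2 and the anchoring protein Akap5 stood at 7.77 and 1.39 FPKM in the wild-type library and were listed at 0 in the mutant. All 4 calcineurin genes at the minimum, of 13 in the list, were 2-fold or more below wild-type, where 44.3% of all genes at the minimum were. Another 8 of the list were listed at 0 in both libraries, as were 16280 of all 24319 named genes.

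Among the CaM kinases, Camk2g, the gamma subunit, stood at 34.5 FPKM in the wild-type library and 8.07 FPKM in the mutant, the opposite direction to Camk2a and Camk2b. Camk2n1, an inhibitor of CaM kinase II, stood at 66.1 FPKM in the wild-type library and was listed at 0 in the mutant, a call of lower in the authors' deposited table, at a q-value of 0.029. Camk1g and Camkv stood at 58.9 and 43.6 FPKM in the mutant against a listed 0 in wild-type. Of 11 genes in this list, 8 were at the minimum, of which 4 were 2-fold or more above wild-type and 4 were below it by as much, and 7 of these 8 were listed at 0 in 1 library. Of the genes for calmodulin, which Camk2a, Camk2b, Ppp3ca and Nrgn all bind, Calm2 stood at 1360 FPKM in the wild-type library and 601 FPKM in the mutant. Pcp4, which like Nrgn binds calmodulin, stood at 279 and 62.9 FPKM, and 3 of the 5 genes read in this list were 2-fold or more below wild-type, while Marcks was above it by as much. Calmodulin genes encode the same protein and have close copies, so how reads were shared out among them is uncertain.

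Among the relatives of Calb1, Calb2, the calretinin gene of immature granule neurons and mossy cells, stood at 66.2 FPKM in the wild-type library and was listed at 0 in the mutant like Calb1, with a q-value of 0.362 in the authors' deposited table. The hippocalcin gene Hpca stood at 155 and 10.7 FPKM, and Hpcal4 at 45.6 and 46.2. Of the 6 genes of this list at the minimum, 4 were 2-fold or more below wild-type and 1 was above it by as much. C1ql1, the third C1q-like gene read, stood at 113 FPKM in the wild-type library and 39.5 FPKM in the mutant, against the small differences of C1ql2 and C1ql3. Of the synaptic partners of the C1q-like proteins, Nrxn3 stood at 24.3 FPKM in the wild-type library and 36.1 FPKM in the mutant, and the adhesion receptor gene Adgrb3 at 47.5 against a listed 0.

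Around Icam5, Dsp and Tdo2 many genes were listed at 0 in both libraries, as were 16280 of all 24319 named genes. Of the 10 genes in the ICAM list, 5 were at 0 in both. In the ICAM list Itgb1, a subunit of integrins that bind Icam5, stood at 18.1 FPKM in the wild-type library and 45.8 FPKM in the mutant, and Ezr and Msn, which link Icam5 to actin, at 25.2 and 11.2 FPKM and at a listed 0 and 35.2. In the desmosome list 10 of 13 genes were listed at 0 in both libraries like Dsp, while Jup stood at 38.5 FPKM against a listed 0 and Pkp4 at 8.42 and 72.6. In the kynurenine list 6 of 8 genes were listed at 0 in both libraries like Tdo2, while Afmid stood at 19.1 and 49.4 FPKM and Kynu at 11.0 FPKM against a listed 0. Over the 85 partner genes found, 39 were at the minimum, of which 10 were 2-fold or more above wild-type and 24 were below it by as much, against 40.5% and 44.3% of all genes. Their median log2 difference was -1.49, that of the members 0.54 and that of all 7903 genes at the minimum -0.23. The CaM kinase list within them was split 4 to 4. The authors' deposited table calls 1 of these partners, Camk2n1.

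**Figure D4:**
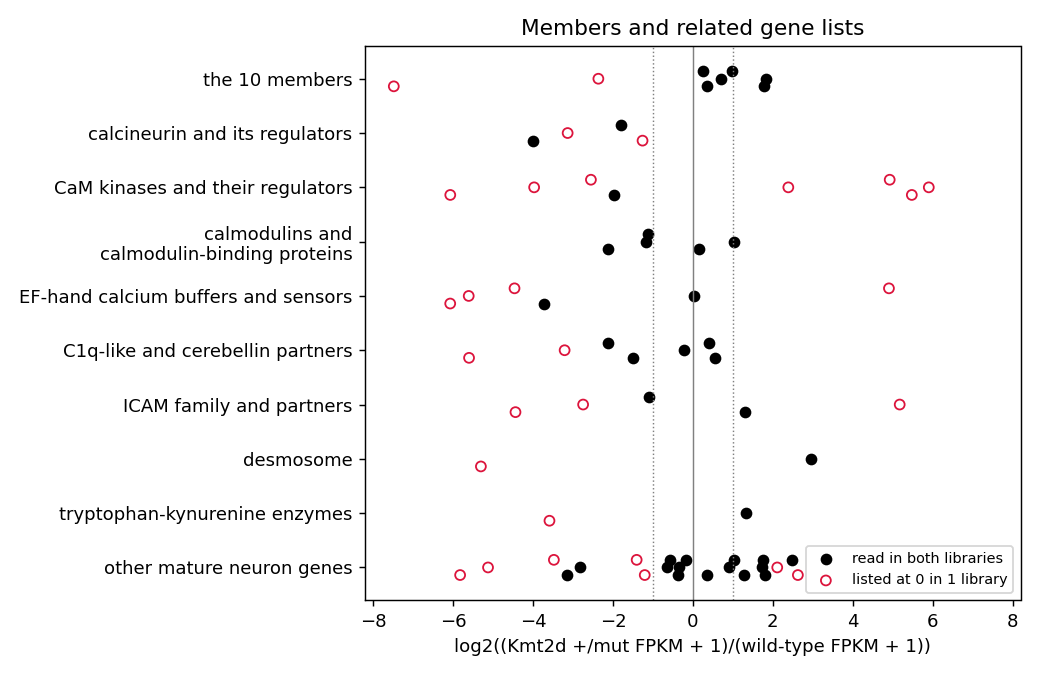
log2((mutant FPKM + 1)/(wild-type FPKM + 1)) of each gene at 1 FPKM or more in at least 1 library, for the members, 8 lists of their partners and relatives, and other mature neuron genes; filled points were read in both libraries, open red ones were listed at 0 in 1, and dotted lines mark 2-fold. The 6 filled points of the members lie above 0 and their 2 open points lie below it. The calcineurin genes, filled and open, lie below 0, and the other lists run both ways.

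Other genes of mature neurons ran both ways, as over all genes. Snap25, Gria2, Map2 and Arpp21 had the highest mean levels of 26 such genes. The synaptic fusion gene Snap25 stood at 685 FPKM in the wild-type library and 539 FPKM in the mutant, the AMPA receptor gene Gria2 at 479 and 369.6, the dendritic Map2 at 124 and 159, and Arpp21 at 49.1 and 279.8. Of the 22 genes at the minimum, 8 were 2-fold or more above wild-type, 7 were below it by as much and 7 were within 2-fold, with a median log2 difference of -0.25. Over the 15 read in both libraries the median was 0.36, against 0.84 for the members. Of these 15, 6 were 2-fold or more above wild-type and 2 were below it by as much. Among the 6, Syn2 and Syp stood 3.55-fold and 3.45-fold higher, close to Camk2a and Camk2b.

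Which nuclei the members' reads came from was not tested. Of the members known as granule neuron markers, Calb1 and C1ql2 were read at 178 and 161 FPKM in the wild-type library and C1ql2 at 193 FPKM in the mutant, while Dsp and Tdo2, like the granule lineage factor Prox1, were listed at 0 in both. Of 9 pyramidal and mossy cell markers 6 were at 0 in both libraries, as were 16280 of all 24319 named genes. Among these 6 markers were Spink8, Fibcd1 and Neurod6. The other 3 were higher in the mutant, Wfs1 at a listed 0 and 65.3 FPKM, Pvrl3 at a listed 0 and 20.7, and Ociad2 at 33.9 and 45.8, with sums of 33.9 and 131.8, and the authors' deposited table calls Wfs1 higher, at a q-value of 0.029.

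The 15 immature granule neuron markers ran both ways. Of these 11 were read in wild-type and 12 in the mutant, with summed levels of 1138 and 838 FPKM, and of the 13 at the minimum 5 were 2-fold or more above wild-type and 5 were below it by as much. The doublecortin gene Dcx was listed at 0 in wild-type and read at 51.1 FPKM in the mutant, the only call in this list in the authors' deposited table, where it is higher with a q-value of 0.0263. Stmn1 stood at 21.1 and 128 FPKM and Bhlhe22 at 9.06 and 88.8, while Tac2 stood at 351 and 48.0 and Igfbpl1 at 180.4 and 21.7. Of the 15 proliferation markers 9 were read in wild-type and 4 in the mutant, with sums of 190.1 and 62.4 FPKM. Of the 10 at the minimum, 6 were 2-fold or more below wild-type and 3 were above it by as much, against 44.3% and 40.5% of all genes. All 6 were listed at 0 in the mutant, among them Birc5 and Mcm7, at 47.0 and 45.3 FPKM in the wild-type library. The 3 read in both libraries were higher in the mutant, Mki67 at 0.913 and 23.1 FPKM, Rrm2 at 4.56 and 30.1 and Ccna2 at 5.19 and 7.01, whereas Pcna, Mcm2, Mcm4, Mcm5 and Mcm6 were listed at 0 in both. EdU had been given 16 h before dissection, and the age of the cells whose RNA was read was not measured.

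Genes of other cell types were read in both libraries beside the members. Of 9 oligodendrocyte markers 5 were read in wild-type and 6 in the mutant, with sums of 551 and 1215 FPKM, 3 of the 7 at the minimum were 2-fold or more above wild-type and 2 were below it by as much, and Mog and Ermn were at 0 in both. The authors' deposited table calls 1 of these 9, Cldn11, higher, at a listed 0 and 109.6 FPKM, with a q-value of 0.029. Of 6 precursor markers 5 were read in wild-type and 6 in the mutant, with sums of 675 and 736 FPKM. Of these 6, 3 were 2-fold or more above wild-type and 0 were below it by as much. Pdgfra at 266 and 231 FPKM and Olig1 at 293 and 198 led the list. Olig2, at a listed 0 and 77.8 FPKM, is called higher there, at a q-value of 0.029. Astrocyte and radial glia markers summed to 831 and 1115 FPKM with Aqp4, Nes and Hopx at 0 in both libraries, and of the 7 at the minimum 2 were 2-fold or more above wild-type and 2 were below it by as much. Fabp7 stood at 194 and 443 FPKM, while Glul at 133 and Gfap at 54.6 FPKM in wild-type were listed at 0 in the mutant, and the authors' deposited table calls Glul lower, at a q-value of 0.0291. Microglia markers summed to 62.5 and 280.8 FPKM with Cx3cr1, Tmem119, Aif1, C1qb and C1qc at 0 in both. The inhibitory neuron list summed to 838 and 973 FPKM with Cck, Npy and, named after its values were seen, Sst among the genes read and the defining genes Gad1, Gad2 and Slc32a1 at 0 in both, and all 8 endothelial and mural markers were listed at 0. Their part in the differences of the members was not tested.

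**Figure D5:**
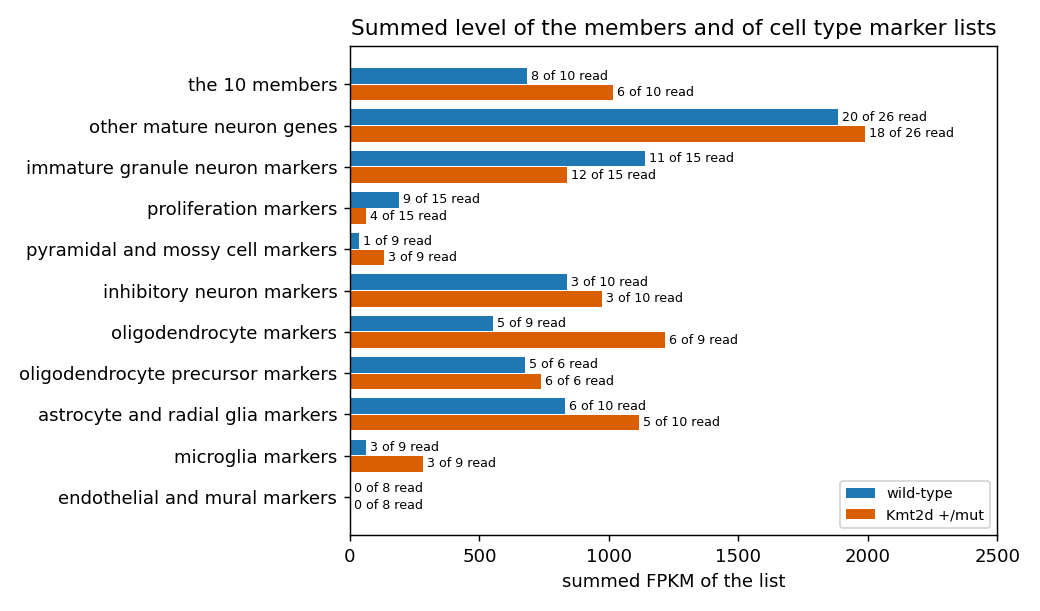
Summed FPKM of the members, of other mature neuron genes and of the marker lists in the wild-type and mutant libraries, with the number of genes read beside each bar. The members' sum is 684 and 1015 FPKM, oligodendrocyte markers show the largest difference in summed FPKM among the glial lists (551 and 1215 FPKM), and no endothelial or mural marker was read.

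As facts of the libraries as a whole, FPKM was above 0 for 5787 genes in wild-type and 5443 in the mutant, and depth was estimated at about 222000 and 216000 fragments, if FPKM was scaled to each library's own total. Kmt2d itself stood at 34.7 FPKM in the wild-type library and 23.5 FPKM in the mutant and was not tested in the authors' deposited table. Of 3182 genes read in both libraries 37.9% were within 2-fold.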

How the data were processed

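Per the labels, RNA of sorted EdU-positive nuclei was amplified by a modified Smart-seq2 protocol, and the submitters' processing notes name HISAT2, Cuffnorm, Cuffdiff and mm10. Tool versions, the annotation and how libraries were scaled to each other are not stated there. Smart-seq2 copies full-length polyadenylated RNA and does not mark strand, so overlapping genes can share reads. The authors deposited 1 table in the layout of Cuffdiff, with FPKM per gene and, for each pair of libraries, their own p-value and q-value. The rows pairing the libraries of this series were used, 27 entries with a date for a name were left out, and the other 4 libraries were not analysed here. The start of each locus in the table is counted from 0 and was raised by 1.

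No test was run between genotypes. Ratios were computed in Python 3.11.15 with a pseudocount of 1 and a minimum FPKM of 1 in at least 1 library. The worth of 1 fragment was fitted from steps between low FPKM values in genes with 1 annotated GENCODE transcript longer than 800 bases: 4.50 FPKM on 1 kb in wild-type and 4.62 in Kmt2d +/mut, after taking 210 and 190 bases off the length. With these, 77.4% of 106 and 76.2% of 84 low values lay within 0.1 of a whole number. The fit and the counts were tested on simulated data. Intervals are exact binomial (SciPy 1.17.1) at 95% and take each estimated fragment as a separate molecule.

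All 10 members are named, and from partner lists the up to 4 genes with the highest mean FPKM and any called gene, from marker lists the leading 3 and those at 0. Some genes that this rule names are not reported here. Further marker genes were named after their values were seen. The members and lists were chosen with earlier results of these data known. Alternatives were other pseudocounts, minimums, scalings and fold sizes, and transcript length.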

Additional observations from a re-analysis of the deposited data

How the results depend on the processing

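No paired analysis was possible because each genotype has 1 library, and for the same reason no library could be left out. A pseudocount cannot change a direction, and a rescaling cannot for Calb1 and Nrgn, which were listed at 0 in the mutant. An equal FPKM sum raises mutant values by 1.13-fold, so it could not turn members already higher there. The rescaling to the median ratio left the 6 members read in both libraries higher in the mutant. It is a small shift, as it moves the median log2 difference of 2377 genes from 0.02 to 0. The size for members listed at 0 is set by the pseudocount, from -10.80 to -4.23 for Calb1 and from -5.41 to -0.50 for Nrgn. The count of members at least 2-fold higher was 2 and became 0 at 4-fold, and it became 3 with a pseudocount of 0.1 or an equal FPKM sum, as Icam5 passed 2-fold. The count at least 2-fold lower went from 2 to 1 with a pseudocount of 10 or a minimum of 5, and the count listed at 0 in 1 library from 2 to 1 with values under 5 read as 0, all through Nrgn. The median log2 difference was 0.54, 0.84 over members read in both libraries and 0.72 with FPKM rescaled to an equal FPKM sum, a scaling that moves the median of 2377 genes with 5 FPKM or more in both libraries from 0.02 to 0.20. Fragments of Ppp3ca, Camk2a and Camk2b are uncertain, as they depend on the transcript assumed, and low depth limits Nrgn and Icam5.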
